A study of Canis lupus familiaris with 18 samples.

Results

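Vascular smooth muscle cells (VSMCs) cultured from the aorta were compared with VSMCs cultured from the vena porta (the portal vein). The comparison holds 6 of the 18 samples of the series, 3 from each vessel, chosen by cell type and vessel as the sample labels give them. All VSMCs came from the abdominal vessels of healthy adult male dogs, left over from cadavers that had served unrelated pacemaker research. After the endothelium had been digested away, the minced wall was treated with collagenase, and the released cells were grown in medium with fetal calf serum to passage 3 without a sort. The cells carry no transgene and received no treatment, and the labels separate the groups by the vessel of origin. Whether the unsorted cultures also differ in their make-up of cell types was not examined here. Samples of each vessel are titled with the numbers 1, 2, and 3 (ISO1, ISO2, and ISO5 in the count table). The same numbers recur in both vessels, and the study took its vessels from 3 dogs, although the labels do not state that a number stands for a dog.

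VSMCs form the muscular layer of the vessel wall, set its diameter by contracting, and deposit the elastin and collagen that give it strength. The aorta is an elastic artery that receives the full pulse pressure of the heart. The vena porta is a thin-walled vein that carries blood at low pressure from the gut and spleen to the liver, and its muscle contracts in spontaneous rhythmic waves. VSMCs kept in serum tend to lose contractile proteins and to proliferate, so cultured cells from both vessels are moved away from their state in the wall.

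Polyadenylated RNA was sequenced and reads were counted per gene. The total count ranged from 10027682 to 12159123 in the aorta (median 10401754) and from 7341227 to 12385269 in the vena porta (median 9817382). The 100 most-counted genes of a sample held 46.3% ± 3.13 of its counts in the aorta (SD, n = 3) and 44.2% ± 2.02 in the vena porta (SD, n = 3). The table lists genes by Ensembl identifier only, and 0 of the 24580 identifiers could be paired with a gene symbol here, because the RefSeq gene table used (UU_Cfam_GSD_1.0) gives no Ensembl identifiers. Smooth muscle and other cell type markers were therefore not looked up, pathways were not analysed here, and genes are given as identifiers or as counts. As a description of likeness, log2 expression across genes correlated at 0.933 to 0.964 (Pearson's r) among the 6 samples and at 0.783 to 0.880 between them and the 9 samples of canine primary endothelial cells (CaPECs). These coefficients are across genes, which are not independent.

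Both the number and the vessel were set against the spread of the samples. In the 500 most variable genes, the number accounted for 52.8% of the variance and the vessel for 30.4%, where their degrees of freedom alone would give 40% and 20%. On the first principal component, which held 40.6% of the variance, the aorta samples lay at 12.3, 30.4, and -10.5 for the numbers 1, 2, and 3, and the vena porta samples at -17.8, 7.80, and -22.3. The vessels overlapped on this axis, but within each number the aorta sample lay above the vena porta sample. The second component held 26.6%, with the aorta at 19.3, -2.07, and 17.5 and the vena porta at -4.53, -24.7, and -5.43. On this axis the vessels did not overlap, and the aorta sample of each number was the higher one. Samples of the same number also deviated together from their group means, with correlations across genes of 0.333, 0.517, and 0.344. The 6 pairs of different numbers gave -0.417 to 0.110. Deviations from a group mean cancel out within the group, so the values of the different-number pairs are partly set by those of the same-number pairs.

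**Figure D1:**
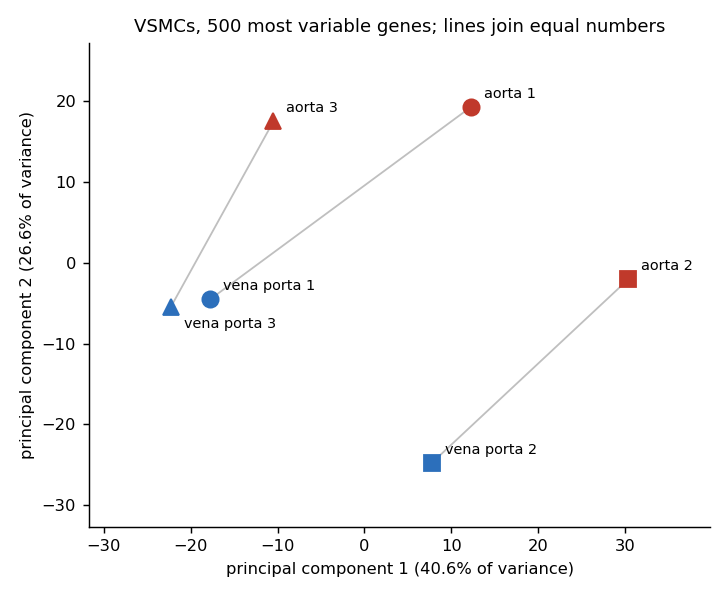
Principal component analysis of the 6 VSMC samples on log2 CPM of the 500 most variable genes; each axis is a component with its share of the variance, red marks the aorta, blue the vena porta, and symbols and connecting lines mark the number. The aorta sample lies above and to the right of the vena porta sample of its number in all 3 pairs, and the pair numbered 2 lies apart from the others.

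The question was which genes differ between VSMCs of the aorta and of the vena porta. Of 11187 genes that passed the filter on low counts, 2 were differentially expressed when the samples were compared without regard to their number, which is 0.0179% of the genes tested. 1 was higher and 1 lower in the aorta (0.00894% each). Genes were called in edgeR's quasi-likelihood test where the p-value after Benjamini-Hochberg adjustment was under 0.05 and the fold change, up or down, exceeded 0.4 on the log2 scale. Without adjustment, 875 genes had a p-value under 0.05 (7.82%). With no filter on low counts, edgeR called 25 genes in the unpaired comparison. DESeq2's Wald test called 151, of which 86 were higher in the aorta and 65 lower. It used its own size factors and gave p-values for 15415 genes, so more than the tool differed from the main comparison. With DESeq2's size factors, edgeR's unpaired comparison called 2 genes. With the number as a block, which compares the vessels within each number, 226 genes were called (2.02% of the genes tested). Of these, 137 were higher in the aorta (1.22%) and 89 were lower (0.796%), and both genes of the unpaired comparison were among them. Without adjustment the block gave 1662 genes (14.9%). The unpaired comparison gave 8 genes without the aorta sample 3, 1 gene without the aorta sample 1 or the vena porta sample 3, and 0 genes without any of the other 3 samples. The block comparison gave 71 genes without number 2 and 449 without number 3.

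ENSCAFG00000007131 was the gene with the smallest p-value among those higher in the aorta. It had 40.9, 36.1, and 37.6 normalized CPM (reads per 1000000 counted reads, after TMM scaling over the 6 samples) in the aorta samples 1, 2, and 3, and 11.1, 9.48, and 11.7 in the vena porta samples. All 3 aorta samples lay above all 3 vena porta samples, and within each vessel the values were close. The gene was 3.55-fold higher in the aorta, a log2 fold change of 1.83 (SE 0.16, 95% confidence interval 1.46 to 2.19, edgeR adjusted p = 0.0279). With the block the log2 fold change was 1.83 (SE 0.14, edgeR adjusted p = 0.00182).

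ENSCAFG00000002142 had the smallest p-value among the genes lower in the aorta. Its normalized CPM was 3.82, 7.05, and 12.1 in the aorta samples and 101.0, 121.9, and 112.1 in the vena porta samples. The highest aorta sample was thus far below the lowest vena porta sample. It was 14.7-fold lower in the aorta, a log2 fold change of -3.88 (SE 0.36, 95% confidence interval -4.71 to -3.05, edgeR adjusted p = 0.0279), and with the block -3.95 (SE 0.25, edgeR adjusted p = 0.00123). This was the smallest p-value of the block comparison.

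Next in each direction were genes that edgeR called with the block but not in the unpaired comparison, although DESeq2 called both without the block. ENSCAFG00000002309 had 23.4, 14.2, and 11.8 normalized CPM in the aorta and 1.53, 2.18, and 1.75 in the vena porta, where it was counted 11, 23, and 23 times. The groups did not overlap, and the spread was wider in the aorta than for ENSCAFG00000007131. Its log2 fold change was 3.16 (SE 0.34, 95% confidence interval 2.37 to 3.95, edgeR adjusted p = 0.0590), and 3.07 with the block (SE 0.30, edgeR adjusted p = 0.00301). ENSCAFG00000007620 had 6.13, 12.1, and 8.79 normalized CPM in the aorta and 69.8, 75.9, and 34.3 in the vena porta. The vena porta sample 3 was the low one of its group, and it still exceeded every aorta sample. The log2 fold change of this gene was -2.73 (SE 0.36, 95% confidence interval -3.56 to -1.91, edgeR adjusted p = 0.116), and -2.70 with the block (SE 0.25, edgeR adjusted p = 0.00236). The remaining genes are described by their number and range.

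**Figure D2:**
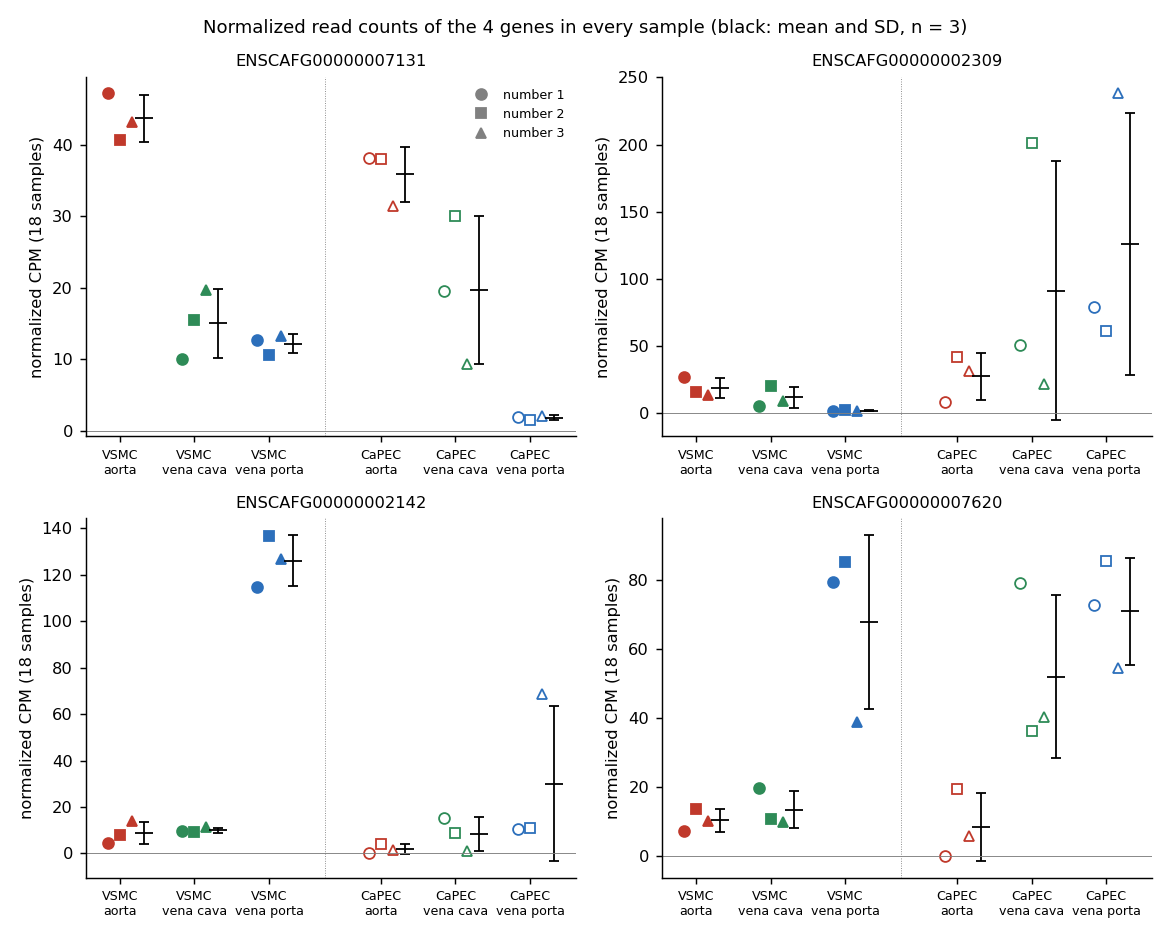
Normalized CPM (linear axis, scaled over all 18 samples) of the 4 genes in each VSMC sample (filled symbols) and CaPEC sample (open symbols) of the aorta (red), vena cava (green), and vena porta (blue); symbols mark the number and black bars the mean and SD of 3 samples. In VSMCs the 3 aorta samples of each gene do not overlap with the 3 vena porta samples, while the vena cava samples lie with the vena porta in ENSCAFG00000007131 and with the aorta in ENSCAFG00000002142 and ENSCAFG00000007620.

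The 137 genes that were higher in the aorta with the block had log2 fold changes from 0.50 to 4.25, with a median of 0.95, and 59 of them exceeded 1. The 89 genes that were lower included 88 with counts in both vessels, and these had log2 fold changes from -4.60 to -0.53, with a median of -1.37, of which 57 were beyond -1. The remaining gene had 0 counts in all 3 aorta samples, so its fitted fold change is not a measure of size. Over all genes tested, the median absolute log2 fold change was 0.18. Aorta and vena porta samples did not overlap in 103 of the 137 genes and in 68 of the 89. Over all genes tested the samples did not overlap in 13.6%, with the aorta higher in 6.88% and lower in 6.68%. These counts describe genes that were chosen on the same samples.

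The median within-number difference of the 137 genes was 0.90, 0.90, and 0.97 on the log2 scale for the numbers 1, 2, and 3, and that of the 89 genes was -1.49, -1.30, and -1.17. The block picks genes whose difference is alike in the 3 pairs, so the closeness of these values is no result. Over all genes tested, 119 had a within-number difference past 1 on the log2 scale with the same sign in all 3 pairs (1.06%), 49 of them with the aorta higher (0.438%) and 70 with the aorta lower (0.626%). By this rule, which uses no test, more genes were lower than higher in the aorta, while the block comparison called more genes that were higher.

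The genes that were higher in the aorta were also the more highly expressed ones. The median expression of the 226 genes was 51.4 normalized CPM, with 74.1 for the 137 genes higher in the aorta and 25.7 for the 89 lower. Over all genes tested the median was 19.4, so both sets lay above it. Of the 3687 genes tested at 1 to 10 normalized CPM, 13 were higher and 26 lower in the aorta. Of the 6020 at 10 to 100, 68 were higher and 47 lower, and of the 1278 at 100 to 1000, 43 were higher and 16 lower. Above 1000 normalized CPM, 13 of 107 genes were called, and all 13 were higher in the aorta. The standard error moved with expression, from a median of 0.36 on the log2 scale at 1 to 10 normalized CPM to 0.11 at 100 to 1000 and 0.14 above 1000.

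**Figure D3:**
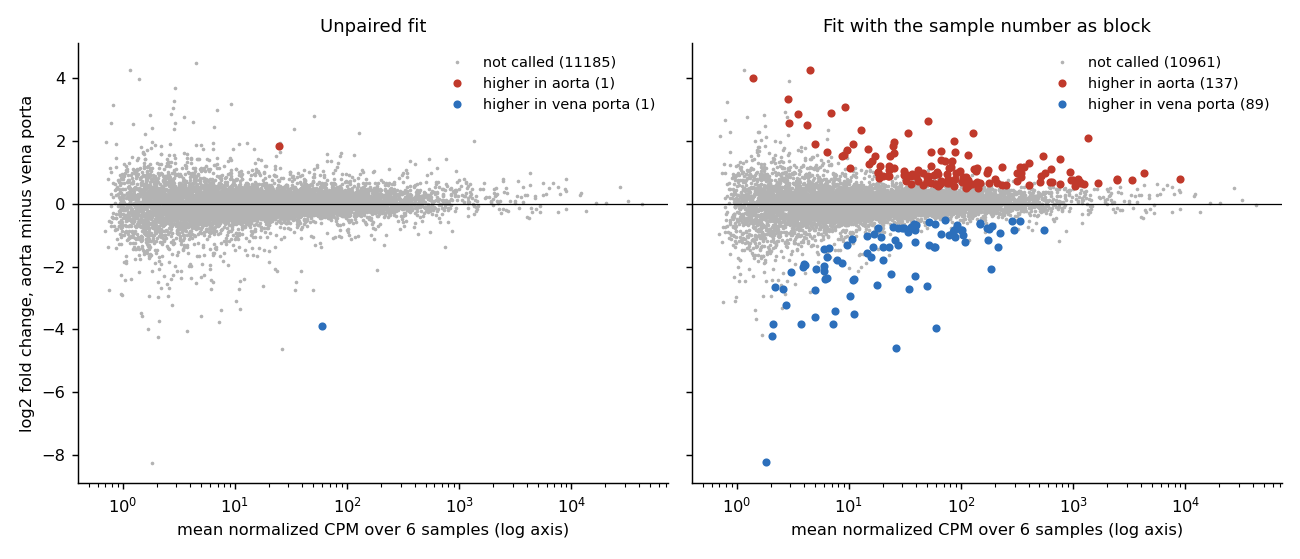
Log2 fold change (aorta minus vena porta) against mean normalized CPM over the 6 VSMC samples (log axis), in the unpaired comparison (left) and with the number as block (right); each point is a gene, red if called higher in the aorta and blue if called higher in the vena porta. The counts are 1 and 1 on the left and 137 and 89 on the right, and beyond 1000 normalized CPM only red points are called. The lowest blue point is the gene with 0 counts in the aorta.

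The 13 highly expressed genes together held 4.01%, 3.73%, and 3.73% of all counts in the aorta samples 1, 2, and 3, and 2.31%, 2.31%, and 2.40% in the vena porta samples. In each of the 13 genes the aorta samples lay above the vena porta samples without overlap, as they did in 6.88% of all genes tested. The 13 genes were called on these same samples, so the gap between the shares gives only its size. Their log2 fold changes with the block ranged from 0.56 to 2.10. In edgeR's unpaired comparison none of the 13 was called, with adjusted p-values from 0.116 to 0.530. DESeq2 called 10 of the 107 genes above 1000 normalized CPM higher in the aorta and 0 lower without the block, and 25 higher and 1 lower with it. Across all 107 genes above 1000 normalized CPM, called or not, 80 had the higher fitted level in the aorta with the block, with a median log2 fold change of 0.22, where the median over all genes was -0.02. With DESeq2's size factors in edgeR, 81 of the 107 had the higher level in the aorta and again 13 were called higher and 0 lower. The block over 9 VSMC samples called 5 higher and 0 lower, with 80 of the 107 at the higher level in the aorta. Without the samples numbered 1, 8 were called higher and 0 lower, and without those numbered 2, 1 was called higher and 0 lower. Without those numbered 3, 16 were called higher and 4 lower, and 65 of the 107 had the higher level in the aorta, with a median log2 fold change of 0.13.

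The 3 numbers were also used to check one another. Genes were called with the block on the samples of 2 numbers, and their direction was then read in the pair that had been left out, for the called genes that also passed the filter over all 6 samples. With number 1 left out, 282 of 300 such genes had the same direction in its pair (94.0%). With number 2 left out this was 67 of 71 (94.4%), and with number 3 left out it was 348 of 443 (78.6%). Over all genes tested, the direction was the same in 59.4% to 61.2%. The size of the difference in the pair left out, taken in the direction of the call, had a median of 0.90, 1.09, and 0.59 on the log2 scale for the numbers 1, 2, and 3. The direction was thus shared most often in the pairs 1 and 2 and least often in the pair 3.

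A gene that was not called is not shown to be alike in both vessels. In the unpaired comparison, the 95% confidence interval of the log2 fold change lay within 0.4 of 0 for 1030 of the 11187 genes (9.21%) and within 1 of 0 for 7586 (67.8%). With the block these numbers were 2256 (20.2%) and 8372 (74.8%). The block lowered the biological coefficient of variation, the spread between samples that counting error does not explain, from 0.263 to 0.165.

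VSMCs of the vena cava, 3 samples with the same numbers, were set beside the others to see where the second vein lay. All comparisons with the vena cava share the aorta or the vena porta samples, so they are given side by side. In the model of 9 VSMC samples with the block, 131 genes were called between aorta and vena porta (1.14% of 11484), 476 between aorta and vena cava (4.14%), and 57 between vena cava and vena porta (0.496%). Among the 137 genes higher in the aorta, the vena cava mean lay nearer to the vena porta in 110 and nearer to the aorta in 27. It lay beyond the vena porta in 60 of them, between both vessels in 72, and beyond the aorta in 5. The median log2 difference was 0.88 between aorta and vena cava and 0.09 between vena cava and vena porta. Among the 89 genes lower in the aorta, 58 lay nearer to the vena porta and 31 nearer to the aorta, with a median log2 difference of -0.85 between aorta and vena cava and -0.49 between vena cava and vena porta. It lay beyond the vena porta in 22 of the 89, between both in 59, and beyond the aorta in 8, where the 59 include 1 gene with an equal mean in vena cava and aorta. Over all genes tested, the vena cava lay nearer to the vena porta in 61.3% of those with a higher mean in the aorta and in 61.9% of those with a lower mean, against 80.3% of the 137 genes and 65.2% of the 89. It lay beyond the vena porta in 44.1% of all genes with a higher mean in the aorta and 44.2% of those with a lower mean, against 43.8% of the 137 and 24.7% of the 89, so the 60 genes beyond the vena porta are at the share of all genes. The called genes were chosen for a large gap between aorta and vena porta in these samples, so the shares are a description.

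**Figure D4:**
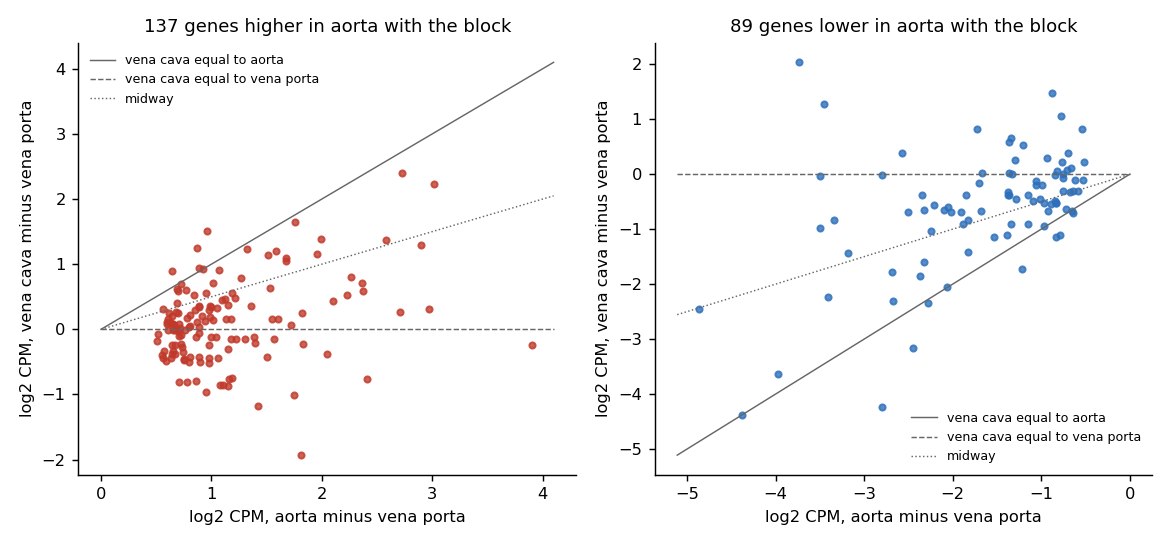
Mean log2 CPM of VSMCs as the difference of the vena cava from the vena porta against the difference of the aorta from the vena porta, for the 137 genes higher (left) and the 89 genes lower (right) in the aorta with the block; lines mark a vena cava equal to the aorta, equal to the vena porta, or midway. On the left 110 points lie nearer to the vena porta line, and on the right 58 do.

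The 4 genes listed above differed in where the vena cava lay. On the scale of all 18 samples, ENSCAFG00000007131 had 9.97, 15.4, and 19.7 normalized CPM in the vena cava VSMCs 1, 2, and 3, beside 40.7 to 47.2 in the aorta and 10.6 to 13.2 in the vena porta. Both veins were thus low. Its log2 difference was 1.58 between aorta and vena cava (edgeR adjusted p = 0.00404 with the block over 9 samples) and 0.28 between vena cava and vena porta (edgeR adjusted p = 0.804). ENSCAFG00000002142 had 9.53, 9.23, and 11.3 in the vena cava, within the range of the aorta (4.41 to 13.9) and below the vena porta (114.8 to 136.9). For this gene the vena porta stood apart from both other vessels, with a log2 difference of -3.65 between vena cava and vena porta (edgeR adjusted p = 0.000179) and of -0.28 between aorta and vena cava (edgeR adjusted p = 0.600).

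ENSCAFG00000007620 had a similar order, with 19.6, 10.8, and 9.83 normalized CPM in the vena cava beside 7.08 to 13.7 in the aorta and 38.9 to 85.2 in the vena porta. The log2 difference between vena cava and vena porta was -2.29 (edgeR adjusted p = 0.0141), and between aorta and vena cava it was -0.37 (edgeR adjusted p = 0.571). ENSCAFG00000002309 was spread in the vena cava, at 5.53, 20.8, and 9.40, and overlapped with the aorta (13.5 to 27.0) but not with the vena porta (1.74 to 2.45). Neither difference from the vena cava passed the threshold, with a log2 difference of 0.79 between aorta and vena cava (edgeR adjusted p = 0.329) and 2.41 between vena cava and vena porta (edgeR adjusted p = 0.0545).

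CaPECs of the aorta and the vena porta, 3 samples each, were grown in a different medium and share no library with the VSMCs. In the study both cell types came from the same vessels of 3 dogs, so agreement between them is not agreement between independent donors. Of the 226 genes called in VSMCs with the block, 207 were tested in CaPECs, and 147 of these had the same direction there (71.0%), against 57.6% of all 10714 genes that both cell types shared. The 137 genes higher in the aorta had a median log2 fold change of 0.44 in CaPECs over the 129 tested, and the 89 lower in the aorta had a median of -0.65 over the 78 tested, where the median of all genes was -0.02. In CaPECs, 255 genes were called (2.27% of 11251) in edgeR's unpaired test. Of the 207 genes, 26 were among these (12.6%), against 208 of the 10714 shared genes (1.94%). The direction was the same in both cell types for 14 of the 15 that were higher in aortic VSMCs (93.3%) and for 7 of the 11 that were lower (63.6%), against 130 of the 208 (62.5%), so those lower in the aorta were near the share of all genes.

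**Figure D5:**
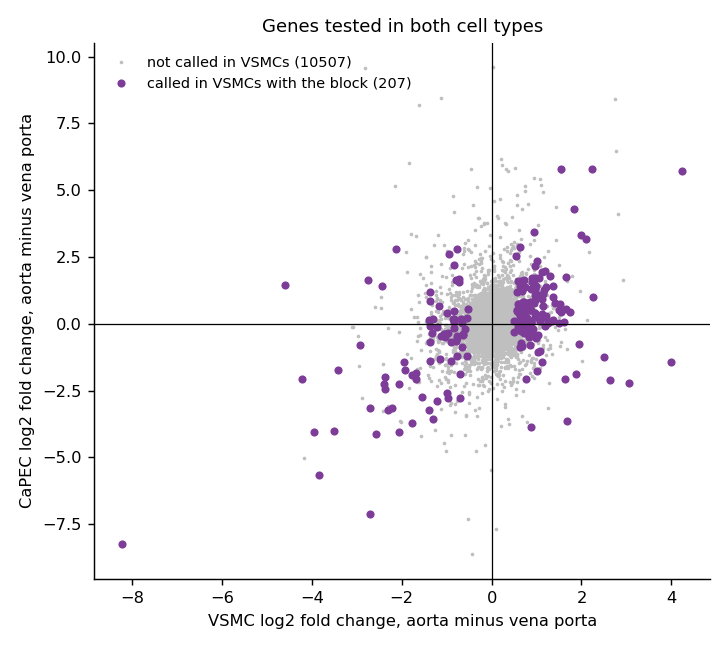
Log2 fold change (aorta minus vena porta) in CaPECs against that in VSMCs for the 10714 genes tested in both; purple points are the 207 genes called in VSMCs with the block. Of the purple points, 147 lie at the lower left and upper right, where the direction is the same.

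Whether the difference between the vessels was itself different in VSMCs and CaPECs was tested as an interaction over the 12 samples. At an edgeR adjusted p-value below 0.05, 62 of 11962 genes differed (0.518%), 11 with the larger aorta minus vena porta value in VSMCs and 51 with the larger value in CaPECs. Without the numbers 1, 2, and 3, the number of genes was 3, 30, and 15. With no filter on low counts it was 113 in edgeR, and with DESeq2's size factors in edgeR it was 65. DESeq2 itself, which gave p-values for 16394 genes, called 292. With the replicate block within each cell type, 137 genes differed (1.15%). For 54 of the 62, each cell type also had its own fold change, and 53 of these were further from 0 in CaPECs. The exception was ENSCAFG00000002309. The share of all genes further from 0 in CaPECs was not counted. Without the block, 983 of 10714 genes were past 1 on the log2 scale in CaPECs, up or down, against 453 of 11187 in VSMCs. The biological coefficient of variation was also higher in CaPECs (0.326 against 0.263 in VSMCs). The part of this wider spread in the count of 53 was not tested. Among the 226 genes called in VSMCs with the block, 8 were among the 62.

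ENSCAFG00000007131 was higher in the aorta in both cell types. On the scale of all 18 samples, CaPECs had 38.2, 38.0, and 31.5 normalized CPM in the aorta and 1.85, 1.47, and 2.09 in the vena porta. The aortic levels of CaPECs were near those of VSMCs, and the vena porta levels were below them. The log2 fold change in CaPECs was 4.29 (SE 0.24, edgeR adjusted p = 0.000419), and the difference of VSMCs from CaPECs was -2.45 (SE 0.25, edgeR adjusted p = 0.00177). ENSCAFG00000002309 ran in opposite directions, with 8.46, 42.2, and 31.9 normalized CPM in aortic CaPECs and 79.6, 61.0, and 238.1 in those of the vena porta. Aortic CaPECs were thus below those of the vena porta without overlap, whereas aortic VSMCs were above. The log2 fold change in CaPECs was -2.20 (SE 0.67, edgeR adjusted p = 0.175), which did not pass the threshold, and the difference of VSMCs from CaPECs was 5.38 (SE 0.89, edgeR adjusted p = 0.0231).

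Both genes that were lower in aortic VSMCs were also low in aortic CaPECs, with a wide spread. ENSCAFG00000002142 had 0, 4.26, and 1.51 normalized CPM in aortic CaPECs and 10.7, 10.8, and 68.8 in those of the vena porta. ENSCAFG00000007620 had 0, 19.3, and 5.68 in aortic CaPECs and 72.6, 85.4, and 54.6 in those of the vena porta. The groups did not overlap in either gene, and in both the aortic CaPEC sample 1 had 0 counts, which allows up to 3. Their log2 fold changes in CaPECs were -4.05 (SE 1.15, edgeR adjusted p = 0.140) and -3.14 (SE 1.01, edgeR adjusted p = 0.197). No difference between the cell types was detected for them, at 0.22 (SE 1.18, edgeR adjusted p = 0.993) and 0.43 (SE 1.12, edgeR adjusted p = 0.978), with errors that allow a large one. In bulk samples such as these, fewer cells that express a gene and less of its RNA per cell cannot be told apart.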

How the data were processed

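RNA of 18 canine VSMC and CaPEC samples had been sequenced by the authors as single-end reads of 75 bases from directional libraries. They aligned the reads to canFam3 with STAR 2.4.2a and deposited raw counts per Ensembl gene from HTSeq-count 0.6.1p1 in union mode. The annotation release and the strand setting are not given in the sources used here, so how reads of overlapping genes were counted cannot be said. No count row lacked a gene.

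Groups and numbers came from the sample titles. The 6 samples were tested with edgeR 4.0.16 in R 4.3.3 (TMM, filterByExpr with a minimum count of 10, quasi-likelihood test, Benjamini-Hochberg adjustment over 11187 genes), which left out 9149 genes with no count in these samples and 4244 with few. The thresholds are those of the study's methods, with p-values taken as adjusted. The number was added as a block because all 3 same-number pairs correlated above 0.1 in their deviations. The interaction was fitted to 12 samples. Standard errors were derived from the F statistic. P-values of the unpaired fit rest on the spread between these samples within a vessel. Those of the block fit rest on the spread that remains after the number is fitted. At 1 CPM, a gene had about 10 counts, and the filter removes most genes below this. DESeq2 1.42.0, its size factors, other filters and thresholds, 9 samples, and left-out samples were alternatives. Scripts were tested on simulated data. The rule for genes given by identifier took the 2 smallest unpaired p-values in each direction. Since no symbols could be paired with the RefSeq table used, planned gene lists were not used. The comparison and the rules were chosen with earlier results of these data known, and the checks with left-out numbers, the vena cava, and expression bins, and the shares over all genes beside them, were added after the data were seen.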

Additional observations from a re-analysis of the deposited data

Results flagged for a closer look

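The interaction of cell type with vessel is listed for a closer look because the difference between aorta and vena porta was itself different in VSMCs and CaPECs in 62 genes (edgeR's quasi-likelihood test, adjusted p-value below 0.05). Without the VSMC and CaPEC samples titled 1, 2, and 3 the count was 3, 30, and 15. DESeq2, which gave p-values for more genes, counted 292, and edgeR with DESeq2's size factors counted 65. Among the 4 genes given by identifier, ENSCAFG00000007131 is listed with an interaction of -2.45 on the log2 scale, with the aorta higher in 3 of 3 numbers in both cell types and by more in CaPECs. ENSCAFG00000002309 is listed with an interaction of 5.38, with the aorta higher in 3 of 3 numbers in VSMCs and lower in 3 of 3 numbers in CaPECs. Without the samples numbered 1, 2, or 3, its interaction was 4.77, 6.39, and 4.82 with an edgeR adjusted p-value of 0.201, 0.0826, and 0.150, so the call was lost with fewer samples while the direction stayed. For ENSCAFG00000007131 the interaction was -2.43 without number 1, with an edgeR adjusted p-value of 0.151. Groups of 3 samples were too small to look for single outlying values.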

How the results depend on the processing

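The number of genes called in the unpaired comparison (2) became 226 with the replicate block, 131 with the block over the 9 VSMC samples, 151 with DESeq2's Wald test, 380 with DESeq2 and the block, and 25 with no filter on low counts. It stayed at the same 2 genes with DESeq2's size factors, with 1 CPM in 3 samples, and with no minimum fold, and was 3 at an adjusted p-value below 0.1. Over 9 samples without the block it was also 2, both lower in the aorta, but only 1 of them was among the 2 of the main comparison. In edgeR, leaving out 1 aorta sample gave 1, 0, and 8 genes without the samples 1, 2, and 3. Leaving out 1 vena porta sample gave 0, 0, and 1, and this 1 gene was not among the 2 called with all samples. Where the count was 0, 864 to 972 genes had an edgeR unadjusted p-value below 0.05. With the block, the 226 genes became 71 without number 2, 449 without number 3, and 307 without number 1, of which 63, 211, and 188 were among the 226. They became 131 over 9 samples, 380 with DESeq2, 452 with no filter, and 425 at an adjusted p-value below 0.1, choices made after seeing the data. The share of called genes higher in the aorta was 55.7% to 66.2% in the block fits. The 62 interaction genes became 137 with the replicate block within cell type, 292 with DESeq2, 113 with no filter, and 3 to 30 without each number (3, 30, and 15 without 1, 2, and 3). Over all genes past the filter, the vessel held 25.5% and the number 52.3% of the variance. The 4 identifiers kept their direction between the vessels in all 20 alternatives. ENSCAFG00000007131 and ENSCAFG00000002142 lost the call in 6 and 4 of them, and ENSCAFG00000002309 and ENSCAFG00000007620 gained it in 12 and 11. The interaction of ENSCAFG00000002142, 0.22 and not called, was -0.0011 with the block and ranged from -1.88 without number 3 to 1.82 without number 2. The causes of these changes were not tested. Genes near 1 CPM had about 10 counts per sample, which limits their precision.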
